A study of Homo sapiens with 6 samples.

Results

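The JAK kinases and the STAT factors they activate were examined in xenografts of BxPC-3 cells from mice treated with DFX (deferasirox), an oral iron chelator, or with the vehicle. The members were the 9 genes JAK1, JAK2, JAK3, TYK2, STAT2, STAT3, STAT5A, STAT5B and STAT6, out of 34423 gene names on the array. Their probes were found by gene symbol among the non-control spots. They were read by 11 probes, 2 each for JAK3 and STAT3 and 1 for each of the others. All 11 probes passed the filter on low values.

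BxPC-3 is a human pancreatic adenocarcinoma cell line, which was grown under the skin of female nude mice. These mice lack T cells but keep other leukocytes, and their RNA was extracted together with that of the tumor cells. The 3 DFX tumors came from mice given 200 mg/kg by oral gavage every second day, with 3 treatments per week, and the 3 Control tumors from mice given the vehicle. Treatment began at a tumor volume of 150 mm3 and lasted 21 days in both groups, and each tumor was read on 1 one-color array of 60-base human probes.

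A cytokine receptor has no kinase of its own. JAK kinases are bound to its inner tail, and when a cytokine brings the chains together they phosphorylate each other, the receptor and then the STAT factors that dock there. Phosphorylated STAT proteins pair, enter the nucleus and bind DNA, and among the genes they switch on are the SOCS genes, whose products shut the kinases off again. In pancreatic cancer the route from IL6-type cytokines through JAK1, JAK2 and STAT3 is the best known branch. The arrays measured RNA only, so phosphorylation was not measured.

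All 6 arrays lay on 1 slide, with Control in row 1 and DFX in row 2, so that slide row and treatment cannot be told apart. The share of probes well above background ran from 50.3% to 56.5% per array. The detection filter kept 31807 of 50599 probes, and 10 of the 11 member probes were well above background on all 6 arrays. No member spot was saturated. Values are log2 intensities after quantile normalization, and a log2 fold change is DFX minus Control. A probe is said to have passed the test at an unadjusted p under 0.05 in limma, the threshold of the study's methods. In bulk tumors, fewer cells of a type and less RNA per cell cannot be told apart.

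Of the 11 member probes, 1 passed the test, which is 9.09%, against 8.41% of all tested probes (4.95% lower and 3.46% higher in DFX). The probe that passed was 1 of the 2 STAT3 probes. The share among the members was therefore near that of the whole array. With the Benjamini-Hochberg adjustment over the whole array, 0 member probes passed in limma, and their adjusted p ranged from 0.580 to 0.980. The 3 DFX values lay wholly apart from the 3 Control values for 3 of the 11 probes (27.3%), against 15.5% of all tested probes (9.15% lower and 6.34% higher). These were JAK1 and STAT3, both lower in DFX, and JAK2, higher in DFX. Over the 11 probes the median log2 fold change was -0.06, against -0.02 over all tested probes. The median size without regard to sign was 0.21 for the members and 0.16 for all tested probes.

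**Figure D1:**
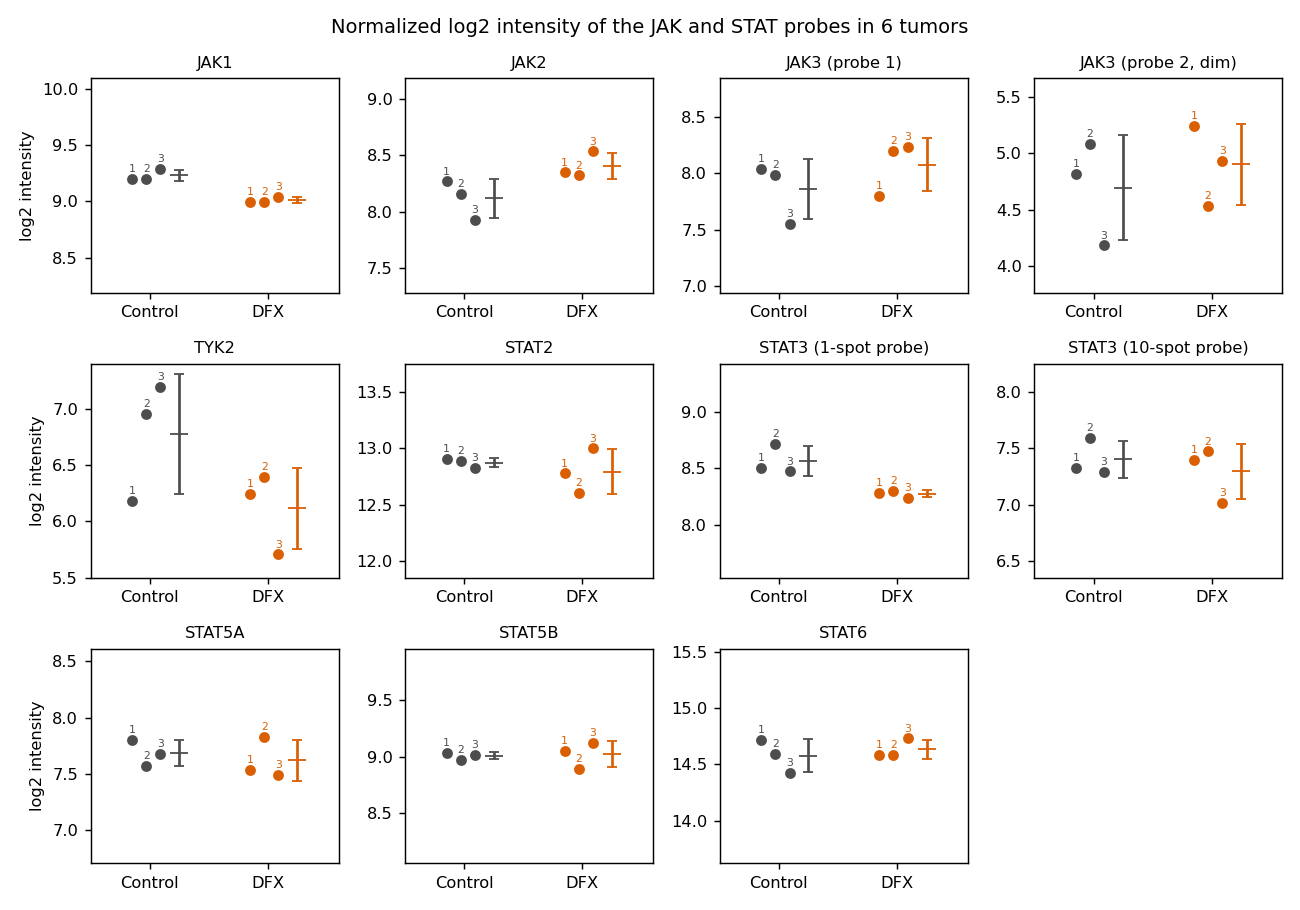
Normalized log2 intensity (y axis) of the 11 JAK and STAT probes in each tumor, with Control in grey, DFX in orange, replicate numbers at the points and bars for the mean ± SD of 3 tumors. Every panel spans the same range on the log2 scale, and the groups stand wholly apart for JAK1, JAK2 and the STAT3 1-spot probe.

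The sequences of 2 probes are printed because the TYK2 probe had the largest log2 fold change among the members and the STAT3 probe was the member probe that passed the test. Both are given in the probe's 5′ to 3′ direction, as deposited with the arrays, with positions on hg19. The TYK2 probe matched chr19:10464877-10465213 on the minus strand. Its 60 bases covered 337 bases of the genome, so it read across a splice junction. The STAT3 1-spot probe matched chr17:40474404-40474463 on the minus strand. Each of these 2 probes had 2 reading frames without a stop codon.
TYK2: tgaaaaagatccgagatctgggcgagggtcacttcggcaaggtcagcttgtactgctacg
STAT3: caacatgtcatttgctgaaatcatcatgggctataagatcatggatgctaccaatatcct

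JAK1 is the kinase shared by the IL6-type, interferon and IL2-type receptors. Its probe (chr1:65299773-65299832, minus strand) gave log2 intensities of 9.200, 9.202 and 9.287 in Control replicates 1 to 3 and 8.996, 8.993 and 9.038 in DFX replicates 1 to 3. All 3 DFX tumors lay below all 3 Control tumors, and the spread within each group was narrow. The mean was 9.23 ± 0.050 (SD, n = 3) in Control and 9.01 ± 0.025 (SD, n = 3) in DFX. The log2 fold change was -0.22 (SE 0.094), and it did not pass the test (limma, unadjusted p = 0.0581, adjusted p = 0.608). On the linear scale this was a difference of -14.2%, with a 95% interval from -26.9% to 0.72%.

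JAK2 pairs with JAK1 at IL6-type and interferon gamma receptors and acts alone at the receptors for erythropoietin, growth hormone and leptin. Its probe (chr9:5127355-5127414, plus strand) gave log2 intensities of 8.27, 8.16 and 7.93 in Control and 8.35, 8.32 and 8.53 in DFX. All 3 DFX tumors lay above all 3 Control tumors, with the nearest values from Control replicate 1 and DFX replicate 2. This log2 fold change of 0.28 (SE 0.133) did not pass the test (limma, unadjusted p = 0.0780, adjusted p = 0.627). The 95% interval ran from -2.95% to 52.5% on the linear scale.

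JAK1 and JAK2 thus lay on opposite sides of no change. Within each array, the log2 intensity of JAK2 minus that of JAK1 was -0.93, -1.04 and -1.36 in Control and -0.65, -0.67 and -0.50 in DFX. Scaling between arrays moves both probes alike and leaves most of this difference in place. The means were -1.11 in Control and -0.61 in DFX. All DFX values lay below Control for JAK1 and above Control for JAK2, so these differences could not overlap between groups. The separation therefore adds nothing to the values of the single probes. Since the pair was picked after its values were seen, no test is given. A difference between probes does not show which of the 2 moved, and neither probe passed the test on its own.

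**Figure D2:**
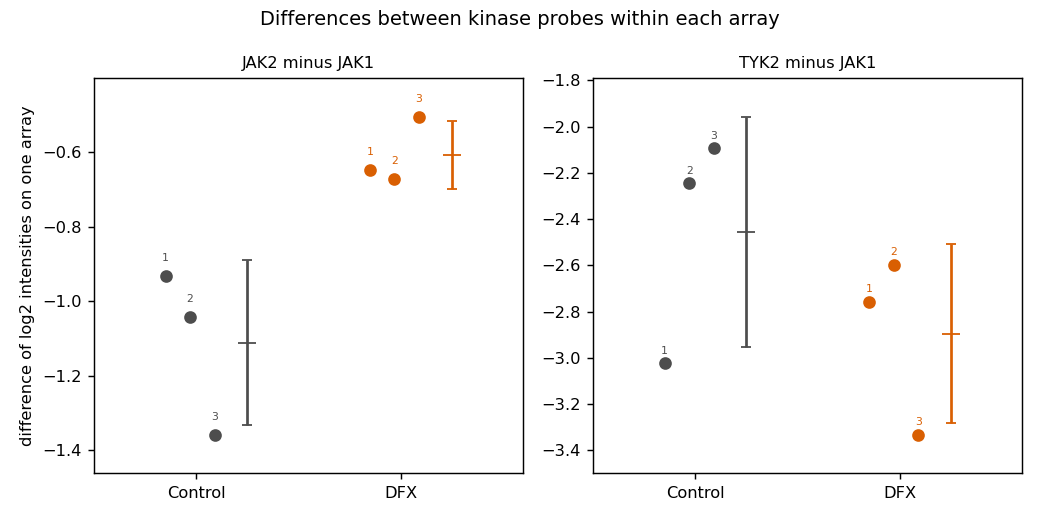
Difference of 2 probes' log2 intensities on the same array (y axis) for JAK2 minus JAK1 and TYK2 minus JAK1, in Control (grey) and DFX (orange), with replicate numbers at the points and bars for the mean ± SD of 3 tumors. For JAK2 minus JAK1 the DFX tumors, from -0.67 to -0.50, lay above the Control tumors, from -1.36 to -0.93. This follows from the opposite separation of the 2 single probes. For TYK2 minus JAK1 the groups overlap.

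TYK2 serves the type I interferon, IL10-type, IL12 and IL23 receptors, mostly beside JAK1 or JAK2. Its probe gave log2 intensities of 6.18, 6.96 and 7.19 in Control and 6.24, 6.40 and 5.71 in DFX. Control replicates 2 and 3 lay above every DFX tumor, whereas Control replicate 1 lay below 2 of the 3 DFX tumors. TYK2 had a log2 fold change of -0.66 (SE 0.315), the largest in size among the members, and only 6.77% of all tested probes had a larger one. It did not pass the test (limma, unadjusted p = 0.0798, adjusted p = 0.627), and the 95% interval ran from -62.9% to 7.69% on the linear scale. Without Control replicate 1 the log2 fold change was -0.96 with an unadjusted p of 0.0112 in limma. Of 20 alternatives this was the only 1 with a p under 0.05, and the raw mean signal gave the smallest size, -0.33. Within arrays, TYK2 minus JAK1 was -3.02, -2.25 and -2.09 in Control and -2.76, -2.60 and -3.33 in DFX, so the groups overlapped there too.

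JAK3 is bound to the common gamma chain of the IL2-type receptors and is known mainly from lymphocytes. Its first probe (chr19:17935597-17935656, minus strand) gave log2 intensities of 8.04, 7.99 and 7.55 in Control and 7.80, 8.20 and 8.23 in DFX. DFX replicate 1 lay within the Control range and the other 2 DFX tumors above it. DFX minus Control was 0.22 (SE 0.191, limma, unadjusted p = 0.298). The second probe (chr19:17937280-17937339, minus strand) was well above background on 2 of 3 arrays in each group, with log2 intensities of 4.18 to 5.08 in Control and 4.53 to 5.25 in DFX. Its log2 fold change was 0.21 (SE 0.290, limma, unadjusted p = 0.498). The 2 JAK3 probes gave the same sign and nearly the same size, and neither passed the test.

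The leukocyte markers bear on JAK3. Of 11 listed leukocyte markers 10 were on the array, 6 were well above background on all arrays, and the macrophage markers CD163 and CSF1R were so on none. The summed linear intensity of the leukocyte markers was 2197 to 2565 in Control and 2353 to 2673 in DFX, and 0 of them passed the test. The human probes may read mouse RNA only in part, so these values do not count the leukocytes of the host. Their part in the JAK3 values was not tested.

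STAT3 is the main STAT of the IL6-type cytokines. Its 1-spot probe gave log2 intensities of 8.50, 8.72 and 8.47 in Control and 8.28, 8.30 and 8.24 in DFX. All 3 DFX tumors lay below all 3 Control tumors, and the DFX tumors lay close together. The mean was 8.57 ± 0.134 (SD, n = 3) in Control and 8.27 ± 0.032 (SD, n = 3) in DFX. The log2 fold change of -0.29 (SE 0.111) passed the test unadjusted and not after adjustment (limma, unadjusted p = 0.0402, adjusted p = 0.580). On the linear scale this was -18.2%, with a 95% interval from -32.3% to -1.24%. The call was lost when Control replicate 1 or 2 or any 1 of the DFX tumors was left out, with log2 fold changes between -0.32 and -0.21 and unadjusted p between 0.0583 and 0.123. It was also lost with the slide column as a block (-0.22, limma, unadjusted p = 0.392). Only columns 2 and 4 held both groups. This block thus compared Control replicates 1 and 3 with DFX replicates 2 and 3, and the other tumors did not enter.

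The other STAT3 probe was printed in 10 spots per array and lies nearer the end of the gene (chr17:40465923-40465982, minus strand). None of its reading frames was free of stop codons, so it is not a wholly coding stretch. Its mean log2 intensities were 7.32, 7.59 and 7.29 in Control and 7.40, 7.47 and 7.01 in DFX. DFX replicates 1 and 2 lay within the Control range and DFX replicate 3 below it. Its log2 fold change of -0.11 (SE 0.166) did not pass the test (limma, unadjusted p = 0.545), and the 95% interval ran from -29.9% to 23.1% on the linear scale. The interval includes the -18.2% of the 1-spot probe, which is no test of a difference between the probes. Their differences within arrays are given below and were not tested.

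The SD of the 10 spots ranged from 0.062 to 0.113 per array, whereas the SD between tumors was 0.164 in Control and 0.246 in DFX. The spots of DFX replicate 3 ran from 6.90 to 7.09. The spread of spots covers neither the labeling of separate samples nor differences between tumors. The difference of the 1-spot from the 10-spot probe was 1.18, 1.13 and 1.18 in the Control arrays and 0.89, 0.83 and 1.23 in the DFX arrays. DFX replicates 1 and 2 thus lay below the Control arrays and DFX replicate 3 above them.

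**Figure D3:**
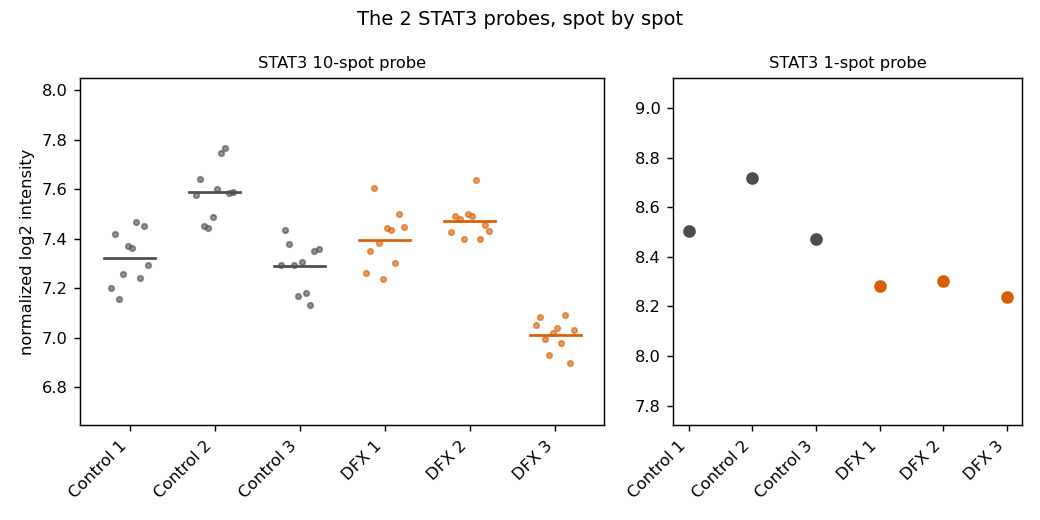
Normalized log2 intensity (y axis) of the 2 STAT3 probes in each tumor (x axis), Control in grey and DFX in orange, where points in the left panel are the 10 spots of one probe with their mean as a line, and the right panel shows the single spot of the other probe. The 10-spot probe was lowest in DFX replicate 3 only, whereas the 1-spot probe was lower in all 3 DFX tumors.

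STAT2 joins IRF9 to carry the type I interferon signal. Its probe (chr12:56735384-56735443, minus strand) gave log2 intensities of 12.90, 12.89 and 12.82 in Control and 12.78, 12.60 and 13.00 in DFX. The DFX values spread on both sides of the Control range. The SD was 0.042 in Control and 0.199 in DFX, and the log2 fold change was -0.08 (SE 0.132, limma, unadjusted p = 0.575).

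STAT5A and STAT5B carry the signals of prolactin, growth hormone and the IL2-type cytokines. STAT5A (chr17:40463483-40463542, plus strand) had log2 intensities of 7.80, 7.57 and 7.68 in Control and 7.54, 7.83 and 7.50 in DFX, and the groups overlapped. DFX minus Control was -0.06 (SE 0.135, limma, unadjusted p = 0.654). STAT5B (chr17:40351196-40351255, minus strand) had log2 intensities of 9.04, 8.97 and 9.01 in Control and 9.05, 8.89 and 9.12 in DFX. Its log2 fold change of 0.01 (SE 0.107, limma, unadjusted p = 0.900) was the smallest among the members, with a 95% interval from -15.7% to 21.0% on the linear scale. The probes of STAT5B, STAT5A and STAT3 lie side by side on chromosome 17. Between the STAT5A probe and the 10-spot STAT3 probe, which are read from opposite strands, lay 2.38 kb.

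STAT6 is the STAT of IL4 and IL13. Its probe (chr12:57489651-57489710, minus strand) gave log2 intensities of 14.72, 14.59 and 14.42 in Control and 14.59, 14.58 and 14.73 in DFX. The groups overlapped, and the log2 fold change was 0.06 (SE 0.121, limma, unadjusted p = 0.655). STAT2, STAT5A, STAT5B and STAT6 therefore gave no call. Their 95% intervals still allowed changes in either direction, with limits from -24.2% (STAT2) to 27.7% (STAT6).

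**Figure D4:**
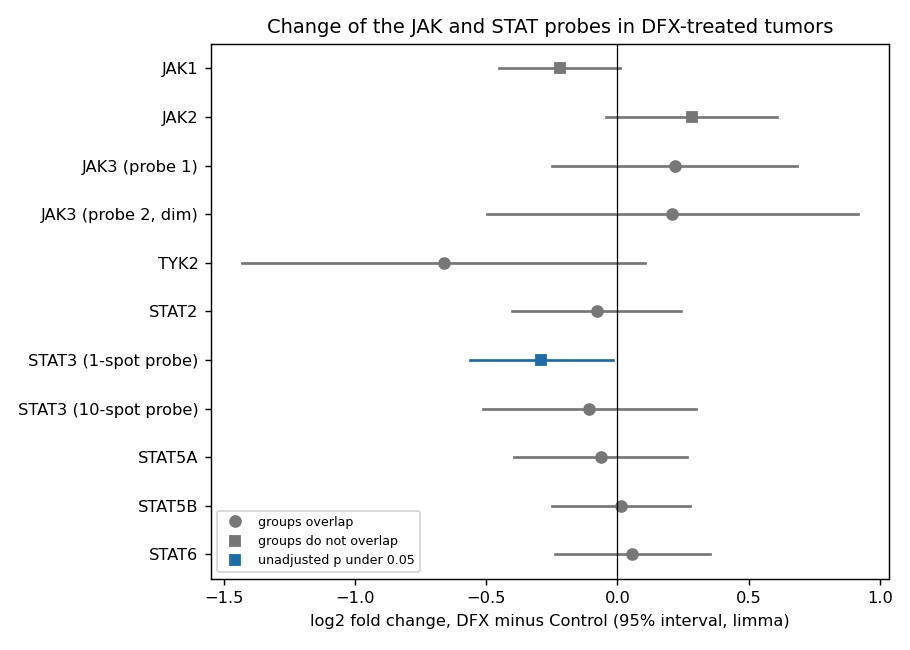
Log2 fold change, DFX minus Control (x axis), of each member probe (y axis) with its 95% interval from limma, where squares mark probes whose groups do not overlap, and blue marks an unadjusted p under 0.05. The STAT3 1-spot probe is the only one whose interval, from -0.56 to -0.02, leaves out 0, and the interval of TYK2 is the widest, from -1.43 to 0.11.

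The genes around the members were read from 6 lists, of which a gene counts when any of its tested probes passed the test, against 10.8% of all tested genes (6.4% with a lower and 4.45% with a higher probe). Among the cytokines that feed the pathway, 3 of 19 tested ligands passed (15.8%). IL11, an IL6-type cytokine, was 7.77, 8.14 and 7.80 in Control and 7.44, 7.29 and 7.48 in DFX on the log2 scale. It fell by 0.50 (SE 0.139, limma, unadjusted p = 0.0113, adjusted p = 0.514), with no overlap between groups. IL15, a cytokine of natural killer cells, fell by 0.27 (SE 0.102, limma, unadjusted p = 0.0388, adjusted p = 0.580). LIF, another IL6-type cytokine, rose by 0.62 on its first probe (SE 0.249, limma, unadjusted p = 0.0478, adjusted p = 0.591). Its second probe gave 0.74 (SE 0.340, limma, unadjusted p = 0.0733). Leaving out any 1 tumor ended the call of IL15 (limma, unadjusted p 0.05001 to 0.135). Leaving out any but Control replicate 3 ended that of LIF (0.0531 to 0.137). IL11 was lost only with the slide column as a block (0.157), a fit in which Control replicate 2 and DFX replicate 1 did not enter. Without DFX replicate 1 the count of ligands was 1. The median log2 fold change of the 19 ligands was -0.25, against -0.01 over all tested genes. Only 8 of the 19 brightest probes were well above background on all arrays, and the median was -0.08 with normexp background correction and -0.05 with the raw mean signal. It was -0.16 without Control replicate 3 and -0.15 without DFX replicate 2.

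Among the receptor chains, 3 of 32 tested genes passed (9.38%), and the median log2 fold change was 0.06. IL22RA1, a chain of the IL22 receptor found on epithelium, rose by 0.35 (SE 0.139, limma, unadjusted p = 0.0446, adjusted p = 0.585). This call was lost when any 1 tumor but DFX replicate 3 was left out (unadjusted p 0.0585 to 0.134). LEPR, the leptin receptor, which signals through JAK2, fell on 2 of its 3 probes. One of these was 6.91, 6.85 and 6.94 in Control and 6.34, 6.26 and 6.43 in DFX, a log2 fold change of -0.56 (SE 0.102, limma, unadjusted p = 0.00153, adjusted p = 0.507). The other gave -0.59 (SE 0.128, limma, unadjusted p = 0.00360, adjusted p = 0.513), whereas the brightest LEPR probe gave -0.01 (limma, unadjusted p = 0.937). The LEPR probes thus disagreed. The call of the first was lost with the slide column as a block, which rests on fewer tumors (limma, unadjusted p = 0.0668). With the raw mean signal the 2 values were -0.32 and -0.17. CSF2RB, the beta chain of the GM-CSF receptor, passed on 2 dim probes of opposite sign. The first was at least 1.03-fold lower in DFX, where it was well above background on none of 3 arrays, and the second was well above background on no array. The first call was lost without Control replicate 1 or 2 or DFX replicate 2 or 3 (unadjusted p 0.0539 to 0.0981) and with normexp background correction (0.185). The second was lost without Control replicate 2 or 3 or DFX replicate 1 or 2 (0.0639 to 0.0971) and with normexp (0.561). Among the other receptors whose brightest probe was well above background on all arrays, the largest changes were those of IL7R (0.41), IL3RA (0.38) and IL27RA (0.28), which did not pass. IL6ST, the chain shared by all IL6-type receptors, was named after its values were seen, and its brightest probe gave a log2 fold change of 0.03 (limma, unadjusted p = 0.791). Another of its probes was lower in DFX with no overlap between groups and did not pass (-0.26, limma, unadjusted p = 0.0624). The count of receptors was 6 without Control replicate 3 and 5 without DFX replicate 2.

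Among the negative regulators, 0 of 16 tested genes passed in limma, and the Kruskal-Wallis H test called 3. With 3 against 3 that test calls only probes whose groups do not overlap, which held for 15.5% of all tested probes. Without Control replicate 3, limma called 1. SOCS1, which blocks JAK kinases directly, had the largest log2 fold change, -0.38 (SE 0.252, limma, unadjusted p = 0.177). PIAS4 gave -0.26 and PIAS3, the PIAS protein named for binding STAT3, gave 0.22 with no overlap between groups (limma, unadjusted p = 0.116 and 0.106). SOCS3, CISH and SOCS2 were named after their values were seen, because they are the usual readouts of STAT3 and STAT5. SOCS3 gave a log2 fold change of 0.05 (SE 0.257, limma, unadjusted p = 0.853), CISH 0.13 (SE 0.226, unadjusted p = 0.592) and SOCS2 -0.06 (SE 0.163, unadjusted p = 0.708). For SOCS3, the log2 intensities were 7.67, 8.11 and 8.07 in Control and 7.53, 8.43 and 8.04 in DFX, so the DFX tumors lay on both sides of the Control range.

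Among 19 tested genes known as STAT3 targets, 4 passed (21.1%), 2 in each direction, and the median log2 fold change was 0.05. HP, which codes for haptoglobin, the acute-phase protein that binds free hemoglobin, was 10.38, 11.19 and 10.97 in Control and 12.69, 12.98 and 12.51 in DFX. The groups stood wholly apart, and the log2 fold change was 1.88 (SE 0.245, limma, unadjusted p = 2.4e-04, adjusted p = 0.504). SAA1, another acute-phase gene, was well above background in none of the Control tumors and in 2 of 3 DFX tumors. It was at least 2.84-fold higher in DFX (limma, unadjusted p = 0.0114, adjusted p = 0.514), and its probe may also read the near-identical SAA2. The bound holds for the background-subtracted signal only, as the log2 fold change was 1.87 there, 0.53 with normexp and 0.48 with the raw mean signal. JUNB, a transcription factor of the AP-1 family, fell by 0.54 (SE 0.190, limma, unadjusted p = 0.0293, adjusted p = 0.569). MCL1, which protects cells from apoptosis, fell by 0.26 (SE 0.106, limma, unadjusted p = 0.0483, adjusted p = 0.592). The call of MCL1 was lost when any 1 tumor but Control replicate 1 was left out (unadjusted p 0.0949 to 0.120), and that of JUNB without DFX replicate 1 or 3 or Control replicate 2 (0.0783 to 0.0879). HP and SAA1 passed whichever tumor was left out. SERPINA3 (0.83), LCN2 (0.83) and MYC (-0.35) did not pass. The count for this list was 2 when Control replicate 2, DFX replicate 1 or DFX replicate 3 was left out.

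Among 15 tested targets of STAT5 and STAT6, 1 passed (6.67%). SERPINB2, an inhibitor of plasminogen activators, fell by 0.68 (SE 0.251, limma, unadjusted p = 0.0345, adjusted p = 0.576), although its groups overlapped. The call was lost without Control replicate 2 or 3 or DFX replicate 1 or 3 (unadjusted p 0.0668 to 0.100). CCL26, a chemokine induced by IL4 and IL13, gave -1.98 (SE 1.02, limma, unadjusted p = 0.0989), with Control values from 5.64 to 9.73 and DFX values from 4.95 to 5.98. The mucin gene MUC5AC gave 1.25 (SE 0.806, limma, unadjusted p = 0.172). The median of the list was -0.06. The count of this list was 0 without DFX replicate 1 or 3 or Control replicate 2, 2 without Control replicate 3 and 3 without Control replicate 1.

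Among 18 tested interferon-response genes that depend on STAT2, 0 passed in limma at an unadjusted p under 0.05, and the Kruskal-Wallis H test also called 0. The largest log2 fold changes were those of IFITM1 (0.43), IFIT2 (-0.31) and IFI6 (0.30). IRF9, the partner of STAT2, was named after its values were seen and gave -0.07 (SE 0.152, limma, unadjusted p = 0.648). The median deviation of these genes from the Control mean was -0.23, -0.15 and 0.42 in Control and 0.05, -0.05 and 0.17 in DFX. Control replicate 3 thus stood above every other tumor, and 4 genes passed without it. Without DFX replicate 3, 1 gene passed.

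**Figure D5:**
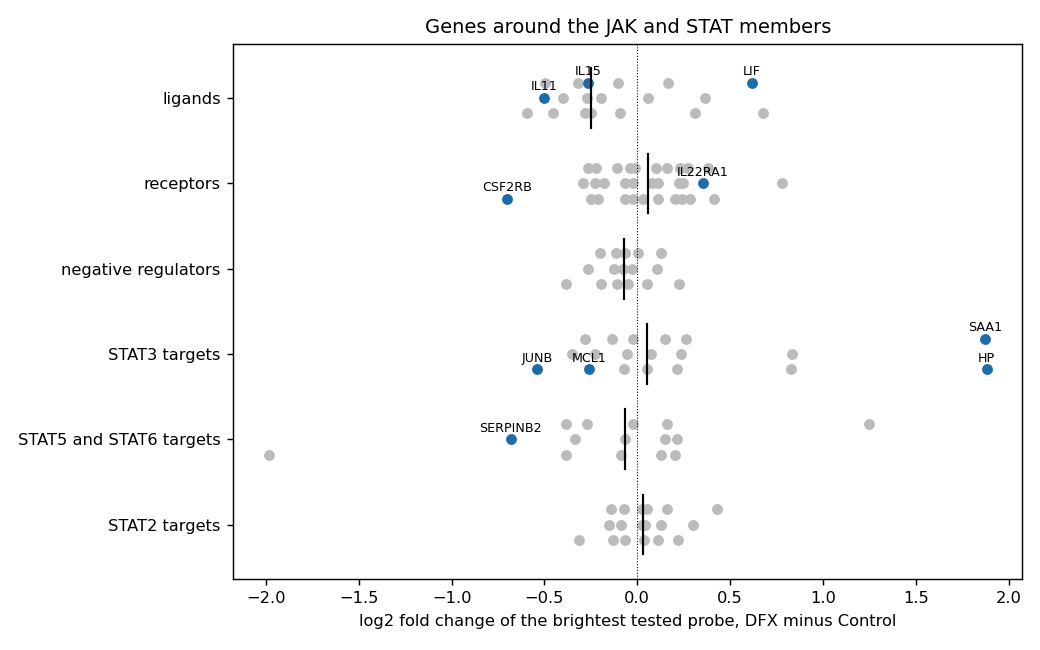
Log2 fold change, DFX minus Control (x axis), of the brightest tested probe of each gene in the 6 lists around the members (y axis; height within a row has no meaning), where blue marks an unadjusted p under 0.05 in limma and the black bar is the median of the list. HP and SAA1 stand farthest to the right at 1.88 and 1.87, and the medians lie between -0.25 (ligands) and 0.06 (receptors).

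The promoters were read from RefSeq (GRCh38.p14, 250 bases before to 50 after each gene start), where all 9 members matched. The letters TTCNNNGAA, a core that STAT pairs bind and which reads the same on both strands, were found in 7.88% of 27305 promoters and in 0 of the 9 member promoters. Other spacings between TTC and GAA were not sought, so the counts cover this form only. A core of the element bound by STAT2 with IRF9, which is 2 copies of GAAA with 2 free bases between them, was sought on both strands. It was found in 3.65% of all promoters, in 0 of 9 members and in 12 of 15 matched STAT2 targets. TTCNNNGAA was found in 1 of 15 matched STAT3 targets, in 3 of 15 targets of STAT5 and STAT6 and in 5 of 15 STAT2 targets. Of 14 matched negative regulators, CISH was the one with TTCNNNGAA. The 250 bases before its start (chr3:50611775-50612024, minus strand, GRCh38.p14) are shown because they hold this motif 4 times, in capitals. A match of letters is no proof of binding.
CISH: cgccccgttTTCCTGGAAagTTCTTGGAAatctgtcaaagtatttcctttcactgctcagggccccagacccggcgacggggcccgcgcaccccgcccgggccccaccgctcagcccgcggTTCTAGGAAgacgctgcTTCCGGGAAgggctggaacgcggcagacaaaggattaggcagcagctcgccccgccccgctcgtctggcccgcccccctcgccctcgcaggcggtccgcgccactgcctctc

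Markers of the cell types in the tumors were summed per array, and the sums of the 2 groups stood wholly apart for epithelial and red blood cell markers and overlapped for fibroblast, endothelial and leukocyte markers. A sum follows its brightest genes, and the counts of genes that passed stand against 10.8% of all tested genes. As befits an epithelial tumor line, 8 of 8 epithelial markers were well above background on all arrays. Their summed linear intensity was 627517 to 629808 in Control and 641585 to 655505 in DFX, and 3 of 8 genes passed, all higher. KRT19, the brightest of them, was 18.54, 18.44 and 18.44 in Control and 18.44, 18.50 and 18.54 in DFX on the log2 scale. It did not pass (0.02, limma, unadjusted p = 0.834). Quantile normalization gives the brightest spots of every array the same few values, so KRT19 could hardly change. The epithelial sums, which follow it, are held close together by the same step. The red blood cell markers summed to 6697 to 7964 in Control and 3047 to 3229 in DFX, with 2 of 6 genes passing, both lower, and AHSP well above background on no array. HBA2, the brightest, gave -1.93 on its brightest probe and HBD gave -1.12. The groups overlapped for HBB, which did not pass (-0.45, limma, unadjusted p = 0.445). The fibroblast markers summed to 13757 to 22720 in Control and 12703 to 15719 in DFX, with PDGFRB well above background on no array. Of these 8 genes 2 passed, DCN lower (-1.30) and LUM higher (0.87). The endothelial markers summed to 500 to 954 in Control and 587 to 624 in DFX, with CLDN5 and KDR well above background on no array. Of these 6 genes 1 passed, PECAM1, which was higher (1.27). The other 3 of the 4 tested genes were lower by their brightest probe and did not pass, and the median of the 4 was -0.19. As with the leukocytes, the human probes may read mouse RNA only in part, so the non-epithelial sums do not count cells of the host. The part of the marked cell types in the JAK and STAT values was not tested.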

How the data were processed

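RNA of 6 tumors was hybridized to Agilent one-color arrays. The authors deposited 1 scanner file per array with intensity values on a linear scale, a background p-value per spot and flags, made with Agilent Feature Extraction 10.7.1.1 per the file headers (9.5.1.1 per the submitters' processing notes and the paper). The authors also deposited normalized intensity values, which served as an alternative. Groups and replicate numbers came from the sample titles. The members and gene lists were chosen with earlier results of these data known.

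The processed signal of 58717 non-control spots was log2-transformed and quantile-normalized, 1398 flagged spot values were left out, and spots were averaged per probe. Probes detected over background (p-value under 0.05) on each of the 6 arrays were tested with limma 3.58.1 in R 4.3.3 (lmFit, eBayes, two-sided), with Benjamini-Hochberg adjustment over 31807 probes. Named genes were all members and, per list, the genes that passed and up to 3 others with the largest change of a brightest probe well above background. IL6ST, SOCS3, CISH, SOCS2 and IRF9 were added afterwards. If none of the dimmer group's arrays had a probe well above background, that group was given, per array, the higher of the probe's own signal and the dimmest signal that counted as well above background, and the fold is written as "at least". On simulated data limma found 85% of 100 probes changed by 1 and 99% of 100 changed by 2 on the log2 scale, and 5.37% of the unchanged ones, in this comparison with 31803 probes. Changes of the members' size, at most 0.66, were not simulated, so these shares do not bear on members that did not pass. With 3 arrays per group, an exact permutation test cannot give a p below 0.1. The replicates were separate tumors, and the number of arrays limits the precision. Alternatives covered normalization, background, filters, flags, the test, blocks, array weights and each tumor left out. In the block by slide column, Control replicate 2 and DFX replicate 1 shared no column with the other group, so they did not enter the fold change. The numbers of same-numbered tumors did not pair them.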

Additional observations from a re-analysis of the deposited data

How the results depend on the processing

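Over 20 alternatives the adjusted p of the member probes stayed between 0.295 and 0.9999. The log2 fold change kept its sign in all 20 for JAK1 (-0.32 to -0.16), JAK2 (0.18 to 0.36), the first JAK3 probe, TYK2 (-0.96 to -0.33), the STAT3 1-spot probe (-0.40 to -0.21) and STAT5A. An unadjusted p under 0.05 was reached in 13 of them by the STAT3 1-spot probe, in 8 by JAK1, in 2 by JAK2 and in 1 by TYK2. The number of member probes that passed (1 as reported) was 2 with median scaling, normexp, no filter, detection in one group, no moderation and array weights, 3 with the raw mean signal and the Kruskal-Wallis H test, and 0 with the slide column as a block. Leaving out 1 tumor gave 0 to 1. All counts with the slide column as a block rest on Control replicates 1 and 3 and DFX replicates 2 and 3. The smallest p of the Kruskal-Wallis H test with 3 against 3 is 0.0495. It is reached only where the groups do not overlap, which held for 15.5% of all tested probes.

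Same-numbered tumors had correlations of 0.027, 0.027 and 0.016 between their deviations, so the numbers do not pair them. With the replicate number as a block, the member count was 0, the count of STAT5 and STAT6 targets 2, and the count of all tested probes 2419.

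The count of all tested probes (2675) was 4927 with the Kruskal-Wallis H test, 1418 with the slide column as a block and 4213 with array weights. Without single tumors it lay between 1889 and 2717. The share of these that were lower was 58.8% as reported. It was 42.6% after scaling to the 75th percentile and 71.8% after scaling to the median, which moved the median of all probes to -0.10. Receptors (3) came to 7 without the filter, 6 with detection in one group, 7 with the Kruskal-Wallis H test, 5 with array weights and 2 to 6 with 1 tumor left out. Ligands (3) came to 1 with the slide column, 7 with array weights and 1 to 4 with 1 tumor left out. Negative regulators (0) came to 1 with median scaling, 2 with normexp, the raw mean signal and array weights, 3 with the Kruskal-Wallis H test and 0 to 1 with 1 tumor left out. STAT3 targets (4) came to 2 with the slide column and 2 to 5 with 1 tumor left out. STAT5 and STAT6 targets (1) came to 0 with the Kruskal-Wallis H test, no moderation and the slide column, 3 with array weights and 0 to 3 with 1 tumor left out. STAT2 targets (0) came to 0 to 4 with 1 tumor left out.

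Signs turned for small values. With median scaling, STAT5B was -0.082, STAT6 -0.040, IL6ST -0.075 and SOCS3 -0.046. With the slide column as a block, STAT5B was -0.016 and the brightest LEPR probe 0.053, which was 0.0017 with normexp and with the raw mean signal. With array weights, CSF2 was -0.19 and SOCS3 -0.16. Leaving out each tumor in turn gave ranges across 0 for the dim JAK3 probe (-0.047 to 0.40, lowest without Control replicate 3), STAT2 (-0.18 to 0.017, highest without DFX replicate 2), the 10-spot STAT3 probe (-0.20 to 0.034, highest without DFX replicate 3), STAT5B (-0.036 to 0.078, below 0 without Control replicate 2 or DFX replicate 3) and STAT6 (-0.021 to 0.13, lowest without Control replicate 3). The same held for CSF2 (-0.053 to 0.74), LEPR (-0.13 to 0.064), IRF9 (-0.15 to 0.057), IL6ST (-0.035 to 0.10), CISH (-0.094 to 0.32), SOCS2 (-0.20 to 0.080) and SOCS3 (-0.16 to 0.29). The cause was not tested.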
